A study of Mus musculus with 12 samples.

Results

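Axon guidance genes were examined in the left atrium (LA) of mice in which Notch was switched on in adult heart muscle cells. The set was defined by gene name and comprised class 3 to class 7 semaphorins, plexins, neuropilins, Slits and Robos, ephrins and Eph receptors, netrins, Unc5 receptors and Dcc. Of 54658 gene names in the count table, 74 matched, and 57 of them had more than 1 CPM (a read count scaled to a fixed library total) in at least 6 of 12 libraries, together with 13541 genes in all. These 57 members were tested; the other 17 were too low and are described by their counts.

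The data were RNA-sequencing read counts from the LA of 6 iNICD mice and 6 littermate controls, 1 library per atrium. Control mice carried αMHC-rtTA alone (4 females and 2 males), and iNICD mice carried αMHC-rtTA with tetO-NICD (3 females and 3 males). Both groups were 2 to 3 months old and ate doxycycline chow for 3 weeks with no washout, so that the transactivator and the drug were shared, while the NICD transgene and, slightly, the share of each sex differed. NICD is the intracellular domain of Notch1, the form that enters the nucleus and acts with the DNA-binding protein RBPJ. The αMHC promoter drives the transactivator in cardiomyocytes (CMs), whereas the RNA was from whole atrial tissue, and the colony was kept on a mixed genetic background.

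Axon guidance genes encode cues and receptors first described in growing nerve fibers and later in vessels, the outflow tract, the cardiac chambers and their innervation. Semaphorins signal through plexins, with neuropilins as co-receptors for most secreted class 3 members. Slits bind Robos, ephrins and Eph receptors signal in both directions between touching cells, and netrins act through Dcc and the Unc5 receptors. Most of these receptors act on the actin cytoskeleton through small GTPases.

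Each library held 21432632 to 27182038 reads on genes. Notch1, whose endogenous and transgene reads cannot be told apart, had 2335 to 3311 counts in Control and 71187 to 107667 in iNICD libraries. Control replicate 5 stood apart: 13.9% of all tested genes were 2-fold or more away from the average of the remaining controls, against 1.82% to 3.71% in each other library. Among the members it was 17 of 57 (29.8%), 14 of them below and 3 above the other controls, whereas no other library had more than 3 such members. For several members the estimate without this library is given too. The atrial markers Nppa, Myl4, Sln and Myl7 were abundant, at a summed 34235 to 44024 normalized CPM in Control and 9269 to 16601 in iNICD LA, and all 4 were lower in iNICD by the test used below. Of 7 general cardiomyocyte markers, which share Sln and Myl7 with that list, these and Tnnt2 were lower (Tnnt2 by a log2 fold change of -0.44, adjusted p = 0.0153, edgeR quasi-likelihood test), whereas Myh6 had -0.03 and Ryr2 0.07. The list summed to 54385 to 59579 normalized CPM in Control and 47528 to 56188 in iNICD, and its part in the results below was not tested. Of 3 ventricular genes, Irx4 had no reads and Myl2 at most 3.22 normalized CPM, whereas Myh7 ran from 13.1 to 2229.9 over the libraries of both groups, with means of 927 in Control and 899 in iNICD (log2 fold change -0.04, adjusted p = 0.99). Neuronal markers were nearly absent: 1 of 7 passed the expression filter, Chrna3 had no reads, and the list summed to 4.18 to 9.89 normalized CPM in Control and 3.41 to 8.43 in iNICD.

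In the Control LA, the levels of the members spanned more than 2 orders of magnitude when the normalized CPM was divided by gene length in kb, the scale on which genes are compared here. The highest were Plxnb2 with 30.0 ± 3.93 normalized CPM per kb (SD, n = 6), Slit3 with 25.2 ± 2.58, Ntn1 with 24.5 ± 4.05, Epha4 with 23.7 ± 6.07, Ephb4 with 22.9 ± 1.59 and Plxnd1 with 19.9 ± 3.18. From Slit3 to Ephb4, each gene differed from the next by less than the SD of either. They encode a semaphorin receptor, a secreted Slit, a secreted netrin, 2 Eph receptors and an endothelial receptor of semaphorins. The ephrins, semaphorins, netrin receptors and Slit receptors lay lower, and their highest members were Efna1 with 10.7 ± 1.67, Sema4d with 9.59 ± 1.66, Unc5b with 8.33 ± 2.72 and Robo4 with 6.92 ± 1.03 normalized CPM per kb. In the iNICD LA the first 3 places went to Slit3 (48.6 ± 7.73), Plxnb2 (44.5 ± 3.06) and Plxnb1 (31.8 ± 1.55), of which Plxnb1 was in place 14 in Control.

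**Figure D1:**
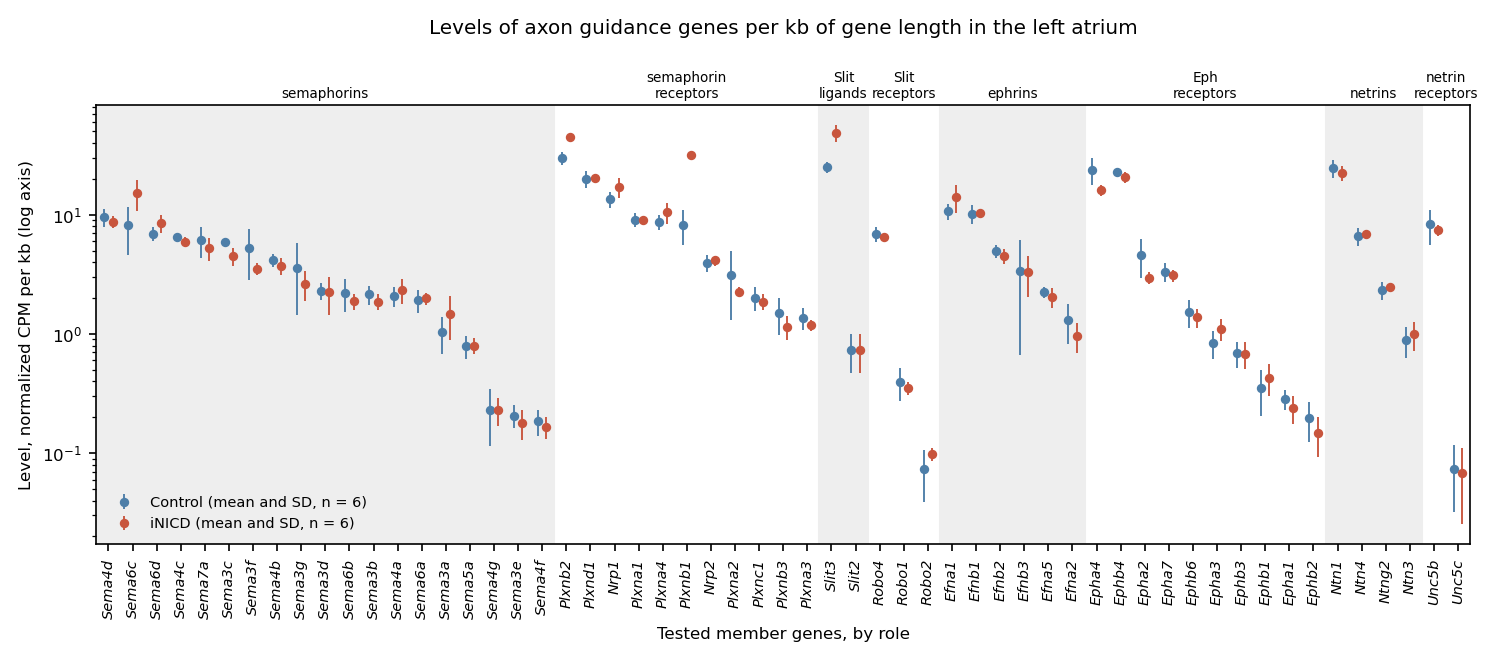
Mean level per kb of gene length (normalized CPM per kb, log axis) of the 57 tested members in Control and iNICD LA, ordered by role and by the Control level, with SD bars over 6 libraries. Most pairs of points lie within each other's bars, whereas Plxnb1 (8.28 against 31.8), Slit3 (25.2 against 48.6) and Plxnb2 (30.0 against 44.5) are apart.

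Few members differed between the groups. Plxnb1, Slit3 and Plxnb2 were higher in iNICD and Sema3c was lower, and the other 53 tested members did not pass (edgeR quasi-likelihood test, p adjusted by Benjamini and Hochberg across the 13541 genes, threshold 0.05). Over all 13541 tested genes, 2.78% were higher and 1.34% lower, and the 3 higher and 1 lower of 57 are described as single genes, not as a property of the set. The same 4 members were those whose 6 iNICD libraries lay entirely above (3 members) or below (1 member) the 6 controls, which held for 2.58% and 1.25% of all tested genes. The median log2 fold change of the members was -0.10, with a range of -0.64 to 1.94, against -0.01 for all tested genes. Of the members, 35 (61.4%) had a negative and 22 a positive fold change, against 51.3% negative over all tested genes, and 11 of 57 had an unadjusted p under 0.05, against 2358 of 13541. In whole tissue, fewer cells of a type and less RNA per cell cannot be told apart.

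**Figure D2:**
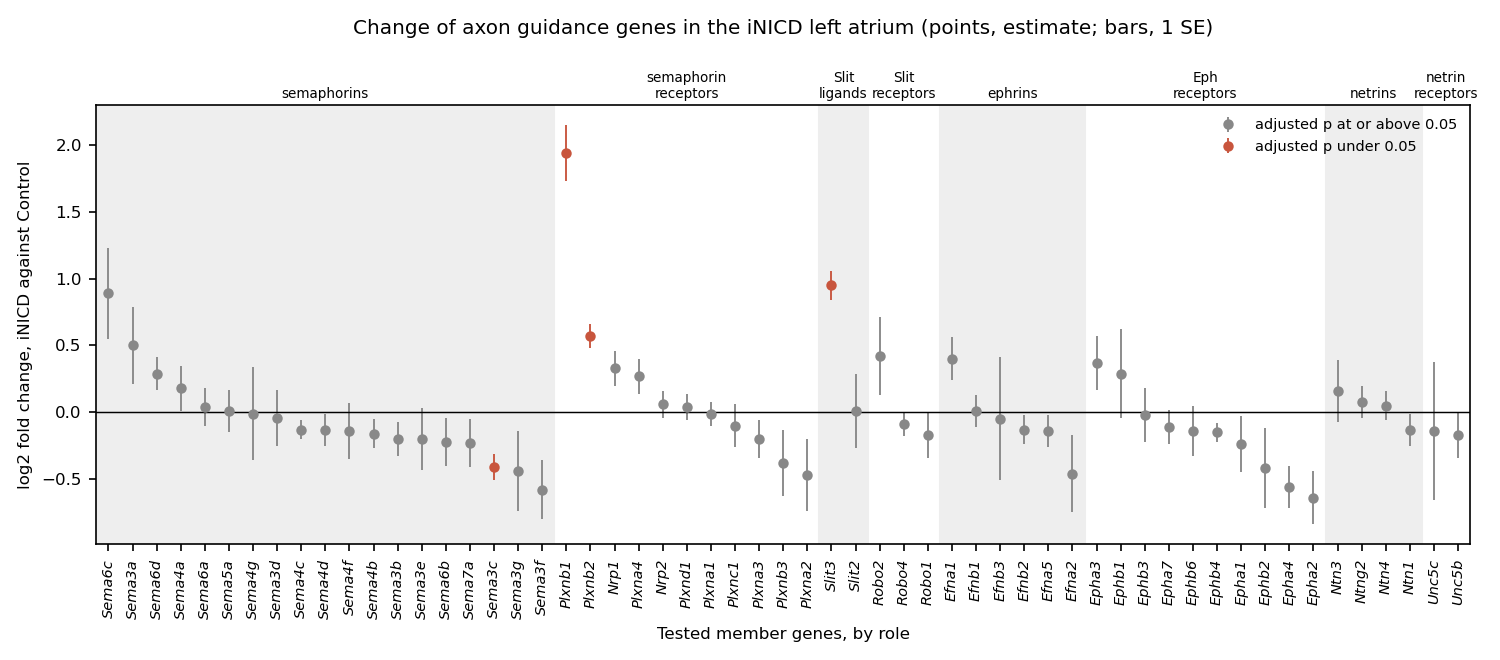
Log2 fold change of each tested member in iNICD against Control LA, by role, with bars of 1 SE. The 4 members with an adjusted p under 0.05 are colored: Plxnb1 (1.94), Slit3 (0.95) and Plxnb2 (0.57) above 0 and Sema3c (-0.41) below.

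Of the 26 tested receptors, Plxnb1 and Plxnb2 passed, which are 2 of the 3 B-type plexins. Plxnb1, which encodes the receptor of the transmembrane semaphorin Sema4d and spans chr9:109095389-109119917 on the plus strand (mm10), had 33.2, 93.6 and 96.2 normalized CPM as the lowest, median and highest of the Control libraries and 289.8, 305 and 323 in iNICD. The groups were far apart, and the iNICD libraries were the more uniform. The log2 fold change was 1.94 ± 0.21 (SE; 3.84-fold; adjusted p = 1.53e-04, edgeR quasi-likelihood test). The exact permutation p was 0.00216, the smallest that 6 against 6 libraries allow. The lowest control was Control replicate 5, and without it the log2 fold change was 1.78. Leaving out any 1 of the 12 libraries gave 1.78 to 2.01, and Plxnb1 passed in all 12 fits. A predicted gene on the opposite strand, Gm7628, shares 257 exonic bases with Plxnb1, but its 387 counts over all libraries were few beside the 57137 of Plxnb1.

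Plxnb2 encodes a related receptor of class 4 semaphorins and spans chr15:89155549-89180788 on the minus strand. Its Control libraries had 179, 238 and 263 normalized CPM (lowest, median, highest) and its iNICD libraries 315, 338 and 382. The groups did not overlap, although the step was smaller than for Plxnb1, with a log2 fold change of 0.57 ± 0.09 (adjusted p = 0.00264, edgeR quasi-likelihood test; 0.51 to 0.61 with 1 library left out, 12 of 12 fits passed). The third B-type plexin, Plxnb3, was low and had an estimate of the opposite sign, with a Control median of 11.3, an iNICD median of 7.29 and overlapping groups (log2 fold change -0.38 ± 0.25, adjusted p = 0.461, and -0.55 without Control replicate 5). None of the 6 other tested plexins passed. Of these, Plxna4, a receptor of class 3 and class 6 semaphorins, had medians of 124 and 146 (0.27 ± 0.13, adjusted p = 0.308), and Plxna1, Plxna2, Plxna3 and Plxnc1 had estimates of -0.47 to -0.01. The lowest of these, Plxna2, was at -0.08 without Control replicate 5, where it was at its highest. Plxnd1, the endothelial plexin, had medians of 152 in both groups and a log2 fold change of 0.04, with an interval of 2 SE on each side from -0.16 to 0.24.

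**Figure D3:**
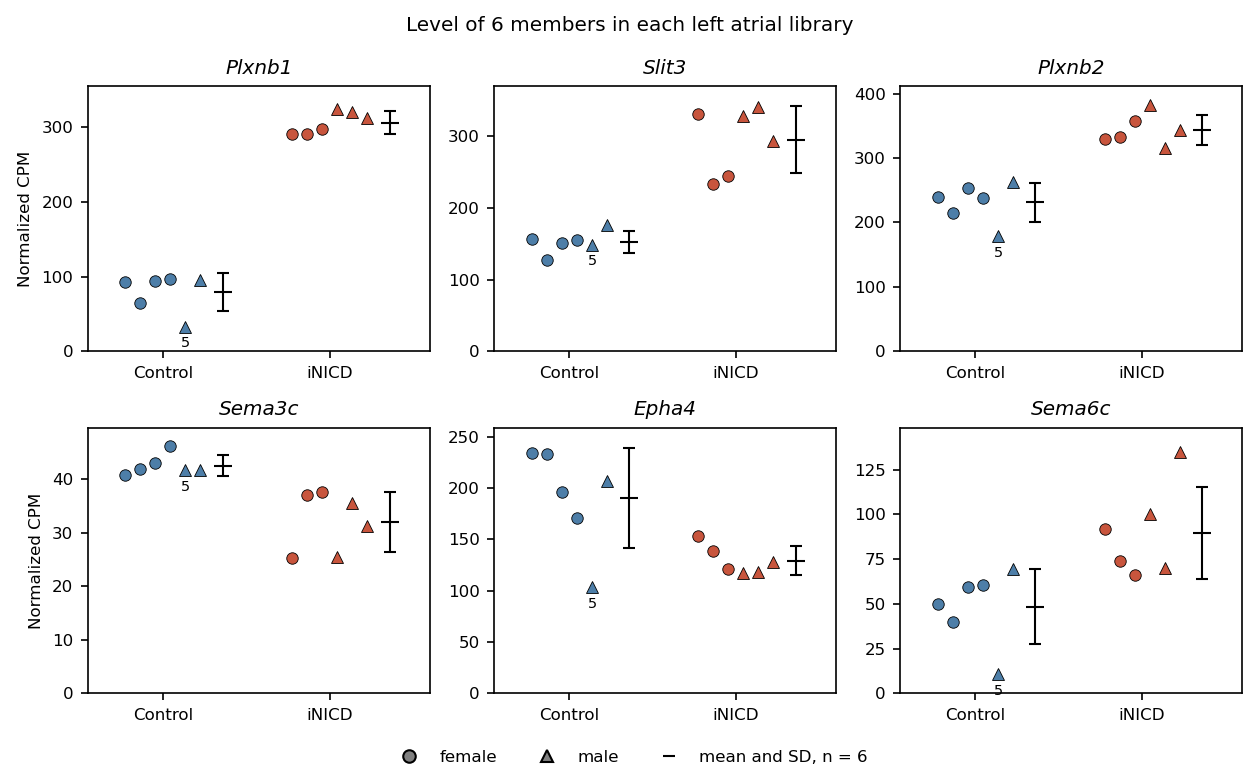
Normalized CPM of 6 members in each LA library, with circles for females, triangles for males and the group mean with SD beside the points; Control replicate 5 is marked with its number. The groups are separate for Plxnb1, Slit3, Plxnb2 and Sema3c, whereas for Epha4 and Sema6c they overlap, and Control replicate 5 is the lowest control in Plxnb1, Plxnb2, Epha4 and Sema6c.

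With 2 plexins higher, the make-up of the plexin transcripts differed between the groups. The 9 plexins summed to 83.9 ± 9.12 normalized CPM per kb in Control and 123 ± 4.94 in iNICD. Plxnb1 made up 9.68% ± 2.6 of this sum in Control (5.3% to 11.6%) and 26.0% ± 1.63 in iNICD (24.4% to 28.8%). Plxnb2 was the largest part in both groups, at 35.7% ± 2.52 and 36.2% ± 1.23, while the shares of Plxnd1 were 23.6% ± 2.15 and 16.6% ± 0.689. These shares restate the levels above and were not tested separately. Without Plxnb1 the sum was 75.6 ± 6.89 in Control and 91.0 ± 5.08 in iNICD.

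**Figure D4:**
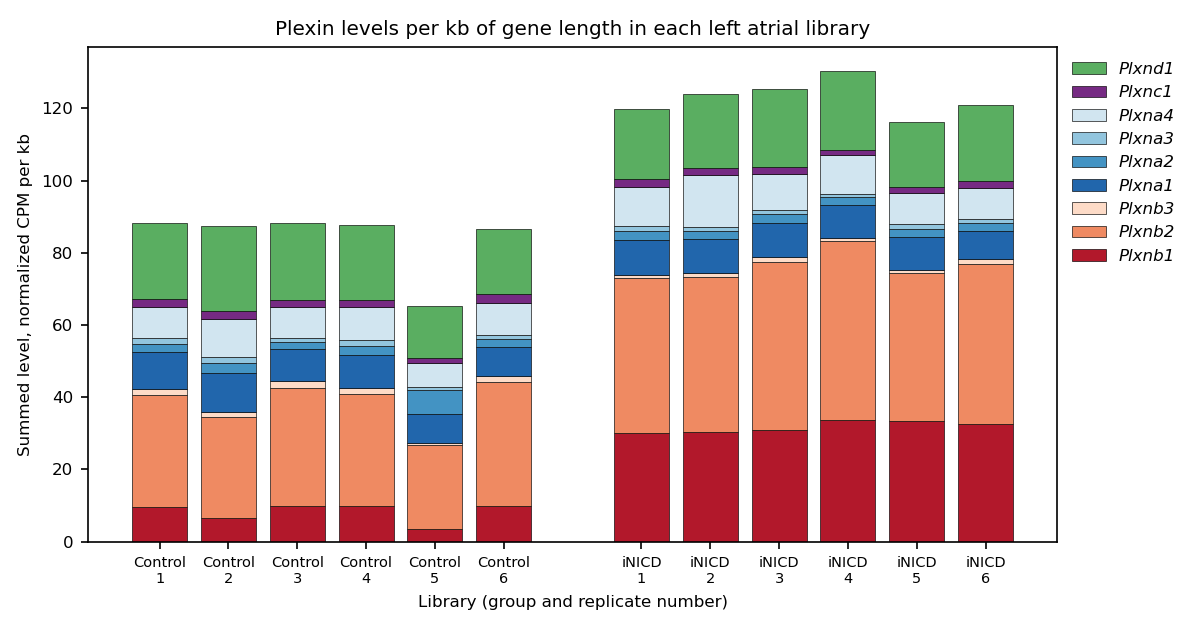
Stacked levels per kb (normalized CPM per kb) of the 9 tested plexins in each of the 12 LA libraries. The iNICD bars reach 116 to 130.4 and the Control bars 65.3 to 88.3, with Control replicate 5 the lowest, and the Plxnb1 segment is larger in every iNICD bar than in any Control bar.

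The class 4 semaphorin ligands of the B-type plexins did not pass the test. Sema4d, the principal ligand of the Plxnb1 product, had 53.2, 73.6 and 89.0 normalized CPM in Control and 55.6, 66.0 and 78.2 in iNICD. These ranges overlapped almost fully, with a log2 fold change of -0.13 ± 0.12 and an interval from -0.37 to 0.11 (adjusted p = 0.605, edgeR quasi-likelihood test). Sema4c, a ligand of the Plxnb2 product, had medians of 29.1 and 27.3 (-0.13 ± 0.07, adjusted p = 0.386). Sema4g, another class 4 member, was low, with means of 1.13 in both groups (log2 fold change -0.01, and -0.21 without Control replicate 5).

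Upstream sequence is shown for both rising plexins because they are the receptors whose levels moved. RefSeq promoter windows (GRCm38.p6, 250 bases before to 50 after the annotated start) were found for 61 of the 74 members, 77 windows in all. They were searched on both strands for TGGGAA, the core of the site that RBPJ binds, and for CACGTG, an E-box bound by Hey and Hes factors among others. TGGGAA was in 17 of the 77 member windows (22.1%), against 25.6% of all 32851 windows and 23.5% of those of tested genes. CACGTG was in 5 (6.49%), against 7.15% and 9.78%. Plxnb1 had the reverse complement of TGGGAA 13 bases after its start, the first of the 2 Plxnb2 windows had it 91 bases before its start, and the windows of Slit3 and Sema3c had neither motif. These letter matches are a description and were not measured as bound sites. The bases before both the RefSeq and the GENCODE start of Plxnb1 (chr9:109095186-109095388, plus strand) and of Plxnb2 (chr15:89180789-89181038, minus strand) read as follows, with the reverse complement of TGGGAA in capitals.
Plxnb1: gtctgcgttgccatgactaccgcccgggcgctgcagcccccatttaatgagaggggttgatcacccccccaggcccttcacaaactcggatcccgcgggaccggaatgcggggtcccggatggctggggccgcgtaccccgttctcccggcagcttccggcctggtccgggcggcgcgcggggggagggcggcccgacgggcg
Plxnb2: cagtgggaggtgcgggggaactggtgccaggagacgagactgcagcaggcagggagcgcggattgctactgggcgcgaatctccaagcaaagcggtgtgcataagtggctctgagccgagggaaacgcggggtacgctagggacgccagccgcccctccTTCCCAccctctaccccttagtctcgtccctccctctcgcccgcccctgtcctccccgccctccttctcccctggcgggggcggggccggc

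Of the Slits and Robos, only the ligand Slit3 passed. Slit3, which encodes a secreted cue and spans chr11:35121224-35708507 on the plus strand, had 127, 153 and 176 normalized CPM in Control and 233, 311 and 341 in iNICD (lowest, median, highest). The groups did not overlap, and 2 of the 3 iNICD females were the lowest of their group. The log2 fold change was 0.95 ± 0.11 (adjusted p = 2.27e-04, edgeR quasi-likelihood test), with 0.90 to 1.01 and 12 of 12 fits passing when 1 library was left out. Slit2 had means of 18.5 ± 6.67 and 18.7 ± 6.7 (log2 fold change 0.01 ± 0.28), and Slit1 had 47 counts over all 12 libraries and was not tested. Fibroblast markers, summed over 7 genes, overlapped between the groups (5159 to 7894 normalized CPM in Control and 6417 to 8215 in iNICD, 0 of 7 genes called), and their part in the Slit3 result was not tested.

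The Robo receptors gave no call. Robo1, a receptor of Slits, had 5.23, 5.73 and 10.4 normalized CPM in Control and 4.72, 5.82 and 6.74 in iNICD (log2 fold change -0.17 ± 0.17, adjusted p = 0.648). Robo2 was lower still, with 0.421, 1.32 and 1.84 against 1.44, 1.61 and 2.01 (0.42 ± 0.29, adjusted p = 0.486, and 0.25 without Control replicate 5). Robo4, which is found mainly in endothelium, was the most abundant, with 31.1, 36.2 and 46.1 against 30.7, 34.9 and 36.5 (-0.09 ± 0.09, adjusted p = 0.659, edgeR quasi-likelihood test). All 3 receptors overlapped between the groups. Robo3 had 21 counts in all. Per kb, Slit3 was 25.2 and Robo4 6.92 in Control, and 48.6 and 6.5 in iNICD.

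Among the 20 semaphorins, 19 were tested, 13 had a negative and 6 a positive log2 fold change, the median was -0.13 and the range -0.58 to 0.89. Sema3c alone passed. It encodes a secreted semaphorin that guides cells of the outflow tract, lies at chr5:17574281-17730268 on the plus strand, and had 40.9, 41.9 and 46.2 normalized CPM in Control against 25.3, 33.4 and 37.6 in iNICD. All 6 iNICD libraries were below all 6 controls, and the spread was wider in iNICD (32.1 ± 5.61) than in Control (42.6 ± 1.91). The log2 fold change was -0.41 ± 0.10 with an adjusted p of 0.0461 by the edgeR quasi-likelihood test, close to the threshold, and the exact permutation p was 0.00216, the smallest possible. The estimate ranged from -0.46 to -0.35 with 1 library left out, but the adjusted p was then 0.0378 to 0.103 and passed in 3 of 12 fits (without Control replicate 5, iNICD replicate 2 or iNICD replicate 3). The call was also lost with sex as a covariate (adjusted p = 0.0573) and with no expression filter (adjusted p = 0.0682). With libraries blocked by replicate number it was lost too (adjusted p = 0.0752 by the titles' numbers and 0.0503 by the descriptions', edgeR quasi-likelihood test). The neuropilins, co-receptors of most class 3 semaphorins, did not pass. Nrp1, also a VEGF co-receptor, had medians of 128 and 172 (0.33 ± 0.13, adjusted p = 0.191, edgeR quasi-likelihood test). Nrp2 had 44.0 and 48.4 (0.06 ± 0.10, adjusted p = 0.794, same test). The plexins, of which Plxnb1 and Plxnb2 passed, are given above.

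The other class 3 semaphorins did not pass. All 7 class 3 members were tested, and 6 of them had a negative estimate, with a median of -0.20. Sema3f had 19.6, 23.0 and 52.4 normalized CPM in Control and 15.2, 17.9 and 20.9 in iNICD, the highest value being Control replicate 5. The log2 fold change was -0.58 ± 0.22 (adjusted p = 0.186), and -0.29 without that library (adjusted p = 0.119). Sema3a, which repels cardiac sympathetic fibers, was the exception in sign, with medians of 13.5 and 20.1 and wide, overlapping ranges (0.50 ± 0.29, adjusted p = 0.395, edgeR quasi-likelihood test).

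Sema6c, a transmembrane semaphorin that binds A-type plexins, had the largest estimate among the semaphorins. Its Control libraries had 11, 54.6 and 69.5 normalized CPM and its iNICD libraries 66.2, 82.9 and 135. The overlap was small, with 5 of 6 iNICD libraries above every control, but both groups were widely spread and the lowest value was again Control replicate 5. The log2 fold change of 0.89 ± 0.34 did not pass after adjustment (adjusted p = 0.183, edgeR quasi-likelihood test; exact permutation p = 0.00433 for this 1 gene, unadjusted), and without Control replicate 5 it was 0.68 (adjusted p = 0.0605). Sema6d, of the same class, had medians of 71.7 and 91.1 (0.29 ± 0.12, adjusted p = 0.229).

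The ephrins and Eph receptors gave no call. Of 14 Eph receptors, 10 were tested, 8 of them with a negative estimate, with a median of -0.14 and a range of -0.64 to 0.37. Of 8 ephrins, 6 were tested, with a median of -0.09 and a range of -0.46 to 0.40. Epha4 and Ephb4 were the most abundant Eph receptors per kb, with Epha4 first in Control by less than the SD and Ephb4 first in iNICD (20.7 ± 2.18 against 16.1 ± 1.75). Epha4 had 104, 202 and 234 normalized CPM in Control and 117, 125 and 153 in iNICD. The lowest control was Control replicate 5, while the other 5 controls, from 171 upward, were all above the iNICD range. The log2 fold change was -0.56 ± 0.16 (adjusted p = 0.0813), and without Control replicate 5 it was -0.69 with an adjusted p of 0.0011, so that this library decided the call (edgeR quasi-likelihood test in both). Epha2, which encodes a receptor of A-type ephrins, had 14.5, 19.0 and 31.6 against 12.1, 13.3 and 16.4. Here 4 of 6 iNICD libraries were below every control, with the lowest estimate of all members, -0.64 ± 0.20 (adjusted p = 0.0996). Both Epha4 and Epha2 passed when the test was the exact test of edgeR (adjusted p = 0.0268 and 0.0399) or DESeq2 (0.0164 and 0.0295). The exact test called 3.63% of all tested genes higher and 2.06% lower, and DESeq2 4.54% and 3.28%.

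The arterial and venous pair of this family did not differ detectably. Efnb2, the ephrin of arterial endothelium, had medians of 33.4 and 32.0 normalized CPM (log2 fold change -0.13 ± 0.11, adjusted p = 0.549), and Ephb4, its venous receptor, had 107 and 93.2 (-0.15 ± 0.07, adjusted p = 0.331, edgeR quasi-likelihood test). Endothelial markers summed to 914 to 1354 normalized CPM in Control, the highest being Control replicate 5, and to 799 to 1049 in iNICD, with 6 of 7 estimates negative and 0 of 7 called, and their part in these values was not tested. Efna1, the most abundant ephrin per kb, had medians of 17.9 and 25.0 (0.40 ± 0.16, adjusted p = 0.227), and Efnb1 had 36.1 and 36.7 (0.01 ± 0.12). Efna2 was the lowest of the tested ephrins, with medians of 2.97 and 1.9 (-0.46 ± 0.29, adjusted p = 0.447, and -0.64 without Control replicate 5).

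Netrins were present without reads of their classical receptor Dcc. None of the 4 tested netrins (log2 fold changes of -0.13 to 0.16) or 2 tested receptors of the set passed. Ntn1, the secreted founder of the family, had 111, 166 and 173 normalized CPM in Control and 121, 135 and 174 in iNICD, which overlapped (log2 fold change -0.13 ± 0.12, adjusted p = 0.626, edgeR quasi-likelihood test). Ntn4, a basement membrane netrin, had medians of 25.0 and 25.7 (0.05 ± 0.11). Dcc had 0 counts in all 12 libraries. Among the netrin receptors of the set, Unc5b, a receptor of endothelial cells, was the most abundant. It had medians of 46.3 and 46.5 and 1 control, replicate 2, at 86.3 (-0.17 ± 0.17, adjusted p = 0.643). Another netrin receptor gene, Neo1 (neogenin), was outside the set and more abundant. Its means were 162 ± 41 normalized CPM in Control and 116 ± 13.7 in iNICD, with overlapping groups (-0.48 ± 0.17, adjusted p = 0.148, edgeR quasi-likelihood test). Unc5c was low, with means of 1.42 ± 0.806 and 1.3 ± 0.813 (log2 fold change -0.14 ± 0.52, and 0.19 ± 0.22 with sex as a covariate).

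The 17 members below the filter were Efna3, Efna4, Epha5, Epha6, Epha8, Epha10, Ntn5, Ntng1, Robo3, Sema5b, Slit1, Unc5a, Unc5d, Dcc and 3 antisense names of Plxna4. Unc5a had 499 counts summed over the 12 libraries and the others at most 159, Epha6 had 0, and the antisense names had 62, 1 and 0. Nearest to the filter outside were Efna4, whose sixth highest CPM was 0.55, and Epha5, at 0.483. Nearest inside were Epha1, with means of 1.12 ± 0.218 and 0.941 ± 0.254 normalized CPM, and Sema4f, with 0.977 ± 0.241 and 0.884 ± 0.186. Epha1 shares 236 exonic bases with Zyx on the opposite strand, and Zyx had 52356 counts against 301, so reads of the pair cannot be told apart where strand was not used in counting.

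The response of the members was also compared between sexes. No member passed the test for a genotype difference that depended on sex (lowest adjusted p of the interaction 0.916, edgeR quasi-likelihood test), and neither did any other tested gene. Of the 57 members, 3 had an unadjusted p under 0.05 in this test. These were Plxna2 (log2 fold change in males minus that in females -1.06), Plxnd1 (0.41) and Sema3d (-0.52). With 2 male controls, the test cannot show that the sexes responded alike. In females and males taken separately, the log2 fold changes were 1.75 ± 0.14 and 2.29 ± 0.46 for Plxnb1, 0.87 ± 0.13 and 0.97 ± 0.14 for Slit3, and 0.53 ± 0.08 and 0.64 ± 0.20 for Plxnb2. All 3 passed in females (4 against 3 libraries) and none in males, where 2 controls, replicate 5 among them, faced 3 iNICD libraries. Over all tested genes, 1.95% were higher and 0.967% lower in females alone, and 0.0591% and 0% in males alone. Taken over both genotypes, 3 of the 57 members had no overlap between the sexes, each with the 7 females above the 5 males, and none had the males above; over all tested genes these shares were 0.554% and 0.827%. Unc5c had 1.54 to 2.21 normalized CPM in females and 0.41 to 0.919 in males. Sema3d had 18.5 to 29.1 and 11.6 to 17.1, and Ephb1 had 2.69 to 4.05 and 0.608 to 2.54. These 3 members were picked out after their values were seen, and the difference between the sexes was not tested.

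The other genes of the guidance pathways were examined in the same fit. A list of 101 other guidance genes (co-receptors and other cues, GTPases and their regulators, kinases and adaptors, cytoskeletal proteins, and proteases that shed ligands or receptors) had 95 tested genes, of which 0 were higher and 1 was lower, 12 had an unadjusted p under 0.05, and the median log2 fold change was -0.03. Over all tested genes these were 2.78% higher, 1.34% lower, 2358 of 13541 and -0.01. The edgeR exact test and DESeq2 each called 2 higher and 2 lower of the 95, against the shares of 3.63% and 2.06% and of 4.54% and 3.28% that they gave over all tested genes. The lower gene was Gpc1, a cell surface heparan sulfate proteoglycan that binds Slits, whose normalized CPM was 532 ± 56.8 in Control LA and 327 ± 81.4 in iNICD LA, with no overlap between the groups (log2 fold change -0.70 ± 0.15, adjusted p = 0.0182, edgeR quasi-likelihood test). None of the 30 GTPases and GTPase regulators and none of the 27 kinases and adaptors passed this test.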

How the data were processed

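RNA from the LA of each of the 12 mice was sequenced by the authors after removal of ribosomal RNA, with 50-base single-end reads. The deposited table holds raw read counts per gene name for each library, without normalization, and a gene length in bases given by the authors as a separate column. The study's methods describe 2 routes to LA counts, without a statement of which gave this table; the submitters' processing notes name cutadapt, STAR 2.4.2a, Subread, featureCounts and edgeR on mm10. Whether strand was used in counting is not given in the sources used here. The number of per-sample columns without a matching sample was 0.

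Group and replicate number were taken from the titles and sex from the descriptions. A gene was tested when 6 or more of the 12 libraries exceeded 1 CPM, which left 13541. Libraries were scaled by TMM factors (0.8631 for Control replicate 5 and 0.9735 to 1.061 for the others) and compared with the two-sided quasi-likelihood test in edgeR 4.0.16 (R 4.3.3), and p was adjusted across these genes by Benjamini and Hochberg. Fold changes are on the log2 scale with SE, intervals are 2 SE either side, and normalized CPM are CPM of the TMM-adjusted total. Single genes were also compared by a two-sided exact permutation test over libraries. The sex interaction was tested in the same model. Scripts were tested on simulated data before use. No 2 libraries of a group were copies (lowest chi-square per gene 16.7).

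Members and gene lists were chosen with earlier results of these data known. Named members are those past the threshold, those whose groups did not overlap, the 5 highest and 5 lowest fold changes, the 3 highest levels per kb in each role group, and 2 on each side of the expression filter; ligands and receptors of members past the threshold were added, and further members were named for their role after their values were seen. Alternatives were the edgeR exact test, DESeq2 1.42.0, upper quartile and RLE factors, other filters, omission of mitochondrial genes, sex as a covariate, a replicate block, each sex alone, and each library left out. Positions are from GENCODE M21 on GRCm38, and promoter windows from RefSeq on GRCm38.p6. Tables and plots were made with Python 3.11.15.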

Additional observations from a re-analysis of the deposited data

Results flagged for a closer look

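In each group of 6 libraries, the highest and lowest value of every tested member was compared with the nearest other library by Dixon's ratio (gap divided by range). Of 114 groups examined, 15 held a library past the critical value for 6 libraries. At 1 in 20, about 5.7 would be past it if values were normal and independent. Several of the 15 came from the same library, so these counts are not a test of an excess.

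In Control replicate 5, 4 semaphorin pathway members stood above the other controls. Plxna2, a receptor of class 3 and class 6 semaphorins, had 116 normalized CPM there and 35.0 to 52.2 in the other controls, and its estimate between the groups, -0.47 ± 0.27 on the log2 scale (adjusted p = 0.394, edgeR quasi-likelihood test), was -0.08 without that library. Sema3f had 52.4 against 19.6 to 25.9, and its estimate went from -0.58 to -0.29. Sema3g had 35.9 against 9.32 to 14.6, with -0.44 and -0.04 as estimates, and Sema6b had 14 against 6.57 to 8.45, with -0.22 and -0.04. Smooth muscle and pericyte markers were also highest in this library, at a summed 811 normalized CPM against 396 to 631 in the other controls, and endothelial markers at 1354 against 914 to 1065, whereas fibroblast markers were lowest, at 5159 against 6419.8 to 7894; their part in these values was not tested.

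In Control replicate 2, Unc5b had 86.3 normalized CPM against 40.7 to 49.9 in the other controls, Nrp2 had 62.4 against 41.8 to 46.1, and Robo1 had 10.4 against 5.23 to 6.72. Efnb3, an ephrin, was apart in both groups, with 27.3 in Control replicate 4 against 1.87 to 10.8 and 18.3 in iNICD replicate 6 against 7.35 to 9.99. In iNICD replicate 6, Ntn3 had 7.75 against 3.87 to 4.76 in the other iNICD libraries, Sema3b had 11.5 against 7.88 to 8.82, and Plxna1 was lowest with 70.2 against 82.9 to 86.8. In other iNICD libraries, Efna5 had 11.3 in iNICD replicate 3 against 7.01 to 7.89, Ntng2 had 11.5 in iNICD replicate 2 against 8.79 to 9.79, and Sema7a had 24.7 in iNICD replicate 5 against 14.6 to 16.5.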

How the results depend on the processing

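The count of 3 higher members was the same under every alternative but 1: with males alone (2 against 3 libraries) it was 0. The 1 lower member became 3 with DESeq2 and with the edgeR exact test (Epha2, Epha4 and Sema3c), and 0 with no expression filter, with sex as a covariate, with females alone and with males alone, and 0 to 2 with 1 library left out, the 2 being Sema3c and Epha4 without Control replicate 5. Replicate numbers are shared between the groups. By the titles' numbers, same-numbered libraries correlated at -0.148 to 0.408, 4 of 6 pairs exceeded 0.1, and 3 of 6 correlated best with their own number. These values do not settle whether the numbers mark pairs, and the sources used here do not state it. The main test was run without a block, and the block was an alternative. With a replicate block, by the titles' numbers or by those of the descriptions, which exchange 2 controls, 3 members were higher and 0 lower, and Sema3c had -0.43 (adjusted p = 0.0752 and 0.0503, edgeR quasi-likelihood test).

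Over all tested genes, 377 higher and 181 lower became 615 and 444 with DESeq2, 8 and 0 in males alone, and 273 to 495 and 92 to 304 with 1 library left out, and 279 were lower by the edgeR exact test. Among the counts with 1 library left out, the highest were 495 and 304 without Control replicate 5, and the lower genes numbered 92 to 116 without Control replicate 1 or 4 or iNICD replicate 1, 3 or 4. Guidance partners went from 0 higher and 1 lower to 2 and 2 with DESeq2 and with the edgeR exact test. Signs turned for some members that passed in no fit. In females alone the log2 fold change was -0.07 for Efnb1, -0.05 for Ntn4 and -0.08 for Plxnd1. In males alone it was 0.09 for Ntn1, 0.07 for Sema4d, 0.00 for Sema4f and -0.27 for Slit2. With 1 library left out it ranged from -0.05 to 0.09 for Efnb1, -0.01 to 0.10 for Ntn4, -0.03 to 0.09 for Plxnd1, -0.15 to 0.15 for Slit2 and -0.23 to 0.03 for Unc5b. The causes were not tested. Of 600 log2 fold changes of the 25 tested members that the naming rule picked, under 24 alternatives, 556 kept direction and side of the threshold. Most of the 25 did not pass in the main fit, and for them staying at or above the threshold counted as kept. The tally is therefore no measure of how stable the calls were.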

Other observations

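Unc5a, a netrin receptor below the expression filter, had 2 separate levels that did not follow the groups. Its counts were 81, 88 and 76 in Control replicates 1, 4 and 6 and 87 and 106 in iNICD replicates 1 and 3. In the other 7 libraries they were 5 to 13. The 5 higher libraries had 3.35 to 3.87 normalized CPM and the 7 lower ones 0.234 to 0.492, with nothing in between, and both levels were found in each group. Neither did they follow sex: 4 of the 5 higher libraries were from females and 1 from a male, and the 7 lower ones held both sexes.

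Rgma, which encodes a repulsive cue that binds neogenin, was singled out from the partner list after its values were seen. Mean normalized CPM was 41.5 in Control LA and 59.4 in iNICD LA, all 6 iNICD libraries were above all 6 controls, and the log2 fold change of 0.52 ± 0.13 just missed the threshold (adjusted p = 0.0519, edgeR quasi-likelihood test).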
